A study of Homo sapiens with 12 samples.

Results

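The genes described here are 9 members of the human MHC class I system: the heavy chain genes HLA-B, HLA-C, HLA-E, HLA-F and HLA-G, the light chain gene B2M, the class I transactivator gene NLRC5, and the stress ligand genes MICA and MICB. They were taken by name as 9 of the 40173 gene IDs in the expression table, with earlier results of these data known. Each symbol matched 1 ID. RNA was sequenced from 624Mel, an established human melanoma line, after MITF had been knocked down and the cells had been exposed to interferon gamma (IFNγ), to ask how loss of the melanocytic state changes the IFNγ response. There were 4 conditions with 3 libraries each. The siCTRL cells received a control siRNA and no IFNγ. The siCTRL+IFNγ cells received the control siRNA and, 24 h later, 5 ng/mL IFNγ. The siMITF cells received siRNA against MITF and no IFNγ, and the siMITF+IFNγ cells received both agents on that schedule. All cells had thus been through reverse siRNA transfection and were collected 48 h after it. All values come from 1 cell line. The study's methods describe its experiments as done in independent biological replicates, the labels do not tie each library to a culture, and p-values rest on the spread between these libraries.

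Class I molecules display peptides from inside the cell to CD8 T cells. A heavy chain needs the light chain, beta-2-microglobulin, and a peptide to be stable at the surface, and IFNγ is a classical inducer of both chains and of the machinery that makes and loads the peptides. NLRC5 is a nuclear protein that is recruited to class I promoters and raises their transcription. HLA-B and HLA-C are classical peptide presenters, HLA-E is a ligand of the NKG2A receptor of natural killer cells, and HLA-F and HLA-G are non-classical heavy chains with restricted expression. MICA and MICB bind the activating receptor NKG2D, and they need neither peptide nor beta-2-microglobulin.

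Levels are in TPM, a transcript count scaled for transcript length and for the size of the library. The depth of the libraries is unknown, so no counting interval is given. MITF itself ranged from 187 to 229 TPM in siCTRL libraries and from 36.0 to 49.7 TPM in siMITF libraries, and with IFNγ from 158 to 246 TPM against 37.5 to 55.1 TPM. The fitted log2 differences were -2.29 without IFNγ (limma adjusted p = 1.16e-06) and -2.14 with it (limma adjusted p = 2.39e-06), in the direction that the labels give. The melanocytic markers MLANA, PMEL, DCT, TYRP1, SOX10 and TRPM1 were present in siCTRL libraries, with a summed level of 7436 to 8782 TPM. Of these 6 genes 5 were called lower in siMITF libraries, where TRPM1 had a mean of 0.544 TPM, and SOX10 was not (263 ± 3.18 against 226 ± 7.96 TPM). Mitochondrial genes took 7.42% to 16.9% of TPM, and the library with the lowest share was replicate 2 in each condition.

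Of the member genes, 7 had RefSeq promoter entries (GRCh38.p14), and their proximal promoters show which sequence elements the induced and the silent genes share. For HLA-E and NLRC5 no sequence is shown. Each line gives the 250 bases before the transcription start, 5′ to 3′ on the strand of the gene, and capitals mark matches to 4 motifs on either strand: AANNGAAA, the core bound by interferon regulatory factors (IRF); CCAAT, the Y box core; TGACG, the X2 box core; and the NF-κB consensus. For HLA-G the window of the most downstream of 3 listed starts is shown.
HLA-B, chr6:31357180-31357429, minus strand: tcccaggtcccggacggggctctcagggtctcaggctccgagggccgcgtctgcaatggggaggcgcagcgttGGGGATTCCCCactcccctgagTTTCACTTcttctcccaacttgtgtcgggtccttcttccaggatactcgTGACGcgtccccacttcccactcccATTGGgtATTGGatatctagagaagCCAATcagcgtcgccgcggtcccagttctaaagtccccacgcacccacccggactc
HLA-C, chr6:31272093-31272342, minus strand: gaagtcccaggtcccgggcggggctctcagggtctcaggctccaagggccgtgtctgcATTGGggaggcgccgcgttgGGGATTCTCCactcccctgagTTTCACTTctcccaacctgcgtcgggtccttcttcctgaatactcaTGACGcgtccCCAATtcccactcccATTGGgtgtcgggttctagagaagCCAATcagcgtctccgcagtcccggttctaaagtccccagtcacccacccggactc
HLA-F, chr6:29723184-29723433, plus strand: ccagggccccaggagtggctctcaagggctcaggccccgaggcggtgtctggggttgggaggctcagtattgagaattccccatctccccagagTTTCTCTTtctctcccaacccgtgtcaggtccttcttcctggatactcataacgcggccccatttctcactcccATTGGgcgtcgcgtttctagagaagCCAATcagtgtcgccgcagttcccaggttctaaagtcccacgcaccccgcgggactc
HLA-G, chr6:29827575-29827824, plus strand: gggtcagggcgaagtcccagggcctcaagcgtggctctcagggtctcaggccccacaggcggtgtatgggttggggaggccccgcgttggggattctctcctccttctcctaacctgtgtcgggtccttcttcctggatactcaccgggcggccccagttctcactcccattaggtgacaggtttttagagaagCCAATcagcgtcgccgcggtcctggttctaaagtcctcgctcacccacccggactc
B2M, chr15:44711267-44711516, plus strand: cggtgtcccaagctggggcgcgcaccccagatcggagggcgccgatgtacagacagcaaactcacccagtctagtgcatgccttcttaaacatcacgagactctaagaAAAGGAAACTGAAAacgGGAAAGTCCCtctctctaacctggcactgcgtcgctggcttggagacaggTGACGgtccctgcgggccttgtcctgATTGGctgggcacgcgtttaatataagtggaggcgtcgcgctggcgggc
MICA, chr6:31403345-31403594, plus strand: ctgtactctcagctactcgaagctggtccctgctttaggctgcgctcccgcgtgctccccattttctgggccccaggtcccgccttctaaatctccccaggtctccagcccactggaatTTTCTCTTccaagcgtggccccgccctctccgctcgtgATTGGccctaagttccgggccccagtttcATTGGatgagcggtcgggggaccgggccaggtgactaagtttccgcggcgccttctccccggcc

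The IRF core was found in the windows of HLA-B, HLA-C, HLA-F, B2M and MICA and also in that of MICB. In HLA-B it lay from -155 to -148 relative to the start, in HLA-C from -151 to -144, and in HLA-F from -156 to -149. B2M had 2 overlapping copies between -142 and -129. No window of HLA-G held this core. It occurred in 20.3% of the 35116 promoter windows of the same length. The longer interferon-stimulated response element (ISRE), present in 3.02% of all windows, was found once in HLA-F and as 2 overlapping copies in B2M, and each of these copies overlaps an IRF core match.

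The Y box core, held by 32.0% of all windows, occurred in the printed windows of all of these genes and in that of MICB. In HLA-B, HLA-C and HLA-G 1 copy lay at the same place, from -56 to -52. The X2 core, in 21.2% of windows, and the NF-κB consensus, in 5.21%, were both found in HLA-B, HLA-C and B2M and in neither HLA-F, HLA-G, MICA nor MICB. The gamma-activated sequence TTCNNNGAA, in 6.57% of windows, and the E box CACGTG, in 6.34%, were in none of the member windows. The E box CATGTG, in 9.42%, was found only in 1 further HLA-G window that is not printed. A match is a stretch of letters and not a measured binding site.

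**Figure D1:**
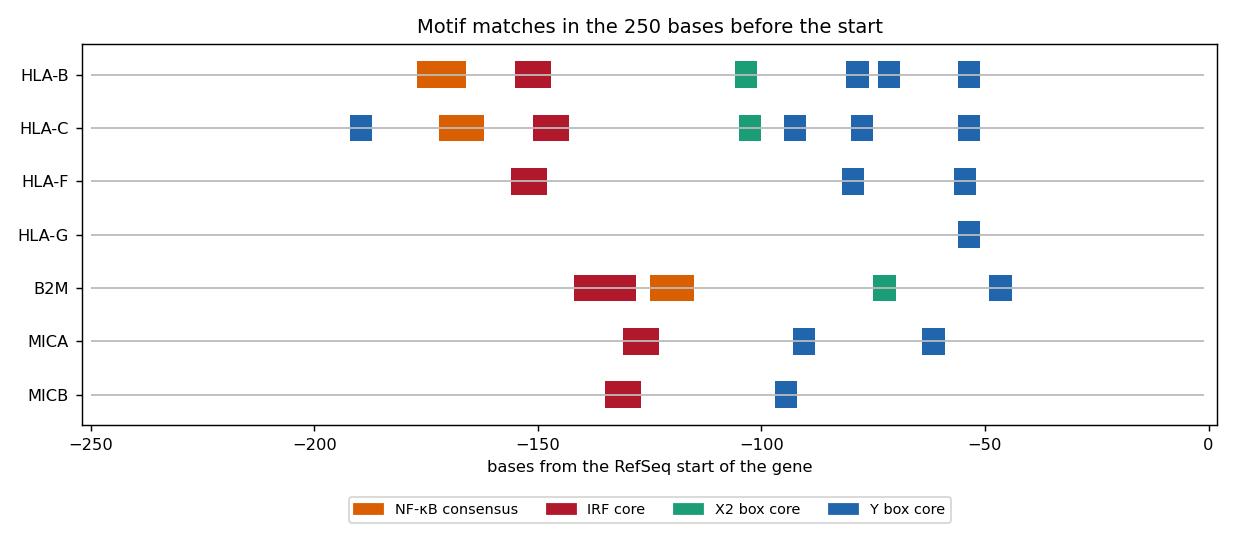
Motif matches in the 250 bases before the transcription start of HLA-B, HLA-C, HLA-F, HLA-G, B2M, MICA and MICB. The horizontal axis is the distance from the start in bases and each block is a match on either strand, with overlapping matches of 1 motif merged. HLA-B, HLA-C and B2M each carry IRF, X2, Y box and NF-κB matches, while the HLA-G window carries a single Y box match.

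Of the 9 genes, 7 reached a mean of 2 TPM in at least 1 condition and were tested, with limma on log2(TPM + 1) over 12773 gene IDs. A gene was called changed with a Benjamini-Hochberg adjusted p under 0.05, a log2 fold change of at least 1 in either direction and a mean of 2 TPM or more in a condition compared. HLA-G and MICB stayed under that level and are described by their values. On this log2 scale the fold changes of genes at low TPM are understated, so ratios of mean TPM are also given. A difference between such fold changes can be understated or overstated.

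In siCTRL cells IFNγ raised 6 of the 7 tested genes: HLA-B, HLA-C, HLA-E, HLA-F, B2M and NLRC5. The exception was MICA. Of all tested genes, 2.42% were called higher in this comparison. In these bulk libraries, a higher level from more expressing cells and one from more RNA per cell cannot be told apart.

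HLA-B, on chromosome 6 from 31353872 to 31367067 (GRCh38, minus strand, ENSG00000234745, 8 exons in its canonical transcript), had low listed levels without IFNγ. Its listed levels are uncertain because it shares sequence with other genes, as described below. Its siCTRL libraries held 2.80, 3.56 and 2.41 TPM and its siCTRL+IFNγ libraries held 73.2, 97.7 and 87.3 TPM. The siMITF libraries held 4.45, 4.07 and 3.90 TPM, and the siMITF+IFNγ libraries held 204, 232 and 246 TPM. No pair of conditions overlapped, and every siMITF+IFNγ library was above every siCTRL+IFNγ library. IFNγ raised the mean 29.4-fold in siCTRL cells, from 2.92 ± 0.585 to 86.1 ± 12.3 TPM (SD, n = 3; log2 fold change 4.47, SE 0.13, limma adjusted p = 4.95e-11). In siMITF cells the rise was 54.9-fold, from 4.14 ± 0.283 to 228 ± 21.7 TPM (log2 fold change 5.47, limma adjusted p = 5.79e-12).

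HLA-C, on chromosome 6 from 31268749 to 31272130 (minus strand; ENSG00000204525), was the most abundant of the heavy chains described here in untreated cells. In siCTRL libraries it stood at 35.7, 40.5 and 33.2 TPM against 169, 213 and 182 TPM with IFNγ. The siMITF libraries held 50.9, 48.5 and 49.0 TPM against 259, 299 and 306 TPM with IFNγ. Each of the 4 conditions was separate from the others. The IFNγ effect was 5.16-fold in siCTRL cells (log2 fold change 2.33, limma adjusted p = 2.49e-09) and 5.82-fold in siMITF cells (log2 fold change 2.51, limma adjusted p = 9.63e-10).

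HLA-E, on chromosome 6 from 30489509 to 30494194 (plus strand; ENSG00000204592), reached overlapping levels with IFNγ in siCTRL and siMITF cells. Without IFNγ its siCTRL libraries held 12.3, 14.3 and 15.3 TPM and its siMITF libraries 12.7, 16.2 and 15.2 TPM. With IFNγ they held 151, 189 and 178 TPM in siCTRL cells and 151, 186 and 186 TPM in siMITF cells. The libraries overlapped wherever conditions differed in the siRNA alone, and never where they differed in IFNγ. The ratios of means were 12.4 in siCTRL (log2 fold change 3.53, limma adjusted p = 3.04e-10) and 11.8 in siMITF cells (log2 fold change 3.48, limma adjusted p = 2.65e-10). Under IFNγ the difference between siMITF and siCTRL cells was 0.02 on the log2 scale, with a 95% confidence interval from -0.25 to 0.28.

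HLA-F, on chromosome 6 from 29722775 to 29738528 (plus strand; ENSG00000204642), was a low-level transcript that IFNγ raised with either siRNA. Its siCTRL libraries held 4.39, 1.86 and 3.00 TPM and its siCTRL+IFNγ libraries 13.6, 16.7 and 15.4 TPM. The siMITF libraries held 2.20, 1.68 and 1.47 TPM and the siMITF+IFNγ libraries 27.8, 28.3 and 27.2 TPM. Without IFNγ both siRNAs gave overlapping values, and with IFNγ they did not overlap. IFNγ raised HLA-F 4.94-fold in siCTRL cells (log2 fold change 2.03, limma adjusted p = 6.31e-06) and 15.6-fold in siMITF cells (log2 fold change 3.38, limma adjusted p = 2.85e-08). An antisense gene, HLA-F-AS1, overlaps HLA-F on the other strand and was not analysed here; the library kit does not mark the strand, so reads from the overlap cannot be told apart.

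HLA-G, on chromosome 6 from 29826967 to 29831125 (plus strand; ENSG00000204632), is best known from the placenta. It was listed at 0.0447, 0.00442 and 0.00266 TPM in siCTRL libraries. It was listed at 0 in 2 of the siCTRL+IFNγ libraries, in 1 siMITF library and in all 3 siMITF+IFNγ libraries, and its remaining values were below those of siCTRL. No fold is given for these levels.

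B2M, on chromosome 15 from 44711358 to 44718851 (plus strand; ENSG00000166710), encodes the light chain shared by all class I heavy chains and was the most abundant of these genes in every condition. Levels in siCTRL libraries were 133, 148 and 130 TPM against 497, 644 and 529 TPM with IFNγ. The siMITF libraries held 166, 173 and 147 TPM against 1058, 959 and 872 TPM with IFNγ. The siMITF+IFNγ libraries lay above all others, and the siCTRL and siMITF libraries overlapped. IFNγ raised B2M 4.07-fold in siCTRL cells (log2 fold change 2.01, limma adjusted p = 2.07e-08) and 5.94-fold in siMITF cells (log2 fold change 2.56, limma adjusted p = 1.47e-09).

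NLRC5, on chromosome 16 from 56989485 to 57083531 (plus strand; ENSG00000140853, 49 exons in its canonical transcript), is the regulator of the group, and only HLA-B had a higher ratio of means with IFNγ. Its siCTRL libraries held 1.84, 3.05 and 2.03 TPM and its siCTRL+IFNγ libraries 46.4, 63.8 and 54.6 TPM. The siMITF libraries held 1.82, 1.65 and 1.48 TPM and the siMITF+IFNγ libraries 53.4, 77.4 and 76.0 TPM. With IFNγ the libraries of both siRNAs overlapped. The ratio of means was 23.8 in siCTRL (log2 fold change 4.09, limma adjusted p = 1.91e-09) and 41.8 in siMITF cells (log2 fold change 4.71, limma adjusted p = 3.57e-10), where the mean without IFNγ was 1.65 ± 0.168 TPM, against 2.30 ± 0.653 TPM in siCTRL.

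MICA, on chromosome 6 from 31399784 to 31415315 (plus strand; ENSG00000204520), did not pass the test for IFNγ with either siRNA. In siCTRL libraries MICA stood at 10.5, 10.5 and 9.37 TPM and in siCTRL+IFNγ libraries at 7.04, 10.2 and 8.89 TPM. The siMITF libraries held 8.32, 9.03 and 8.85 TPM and the siMITF+IFNγ libraries 4.23, 9.16 and 7.40 TPM. All siMITF+IFNγ libraries lay below all siCTRL libraries, but 1 library was far below the others of its condition. The log2 difference with IFNγ was -0.21 in siCTRL cells (95% confidence interval -0.64 to 0.22) and -0.35 in siMITF cells (-0.78 to 0.08). For siMITF+IFNγ against siCTRL it was -0.54 (limma adjusted p = 0.0425), below the fold limit, and without siMITF+IFNγ replicate 1, the lowest library, it was -0.27 (limma adjusted p = 0.142).

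MICB, on chromosome 6 from 31494881 to 31511124 (plus strand; ENSG00000204516), was near 0 throughout. Its libraries ranged from 0.0562 to 0.332 TPM, and condition means were lowest in siCTRL, at 0.116 TPM, and highest under both agents, at 0.217 TPM. The listed levels of MICA were thus well above those of its close relative in every library.

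**Figure D2:**
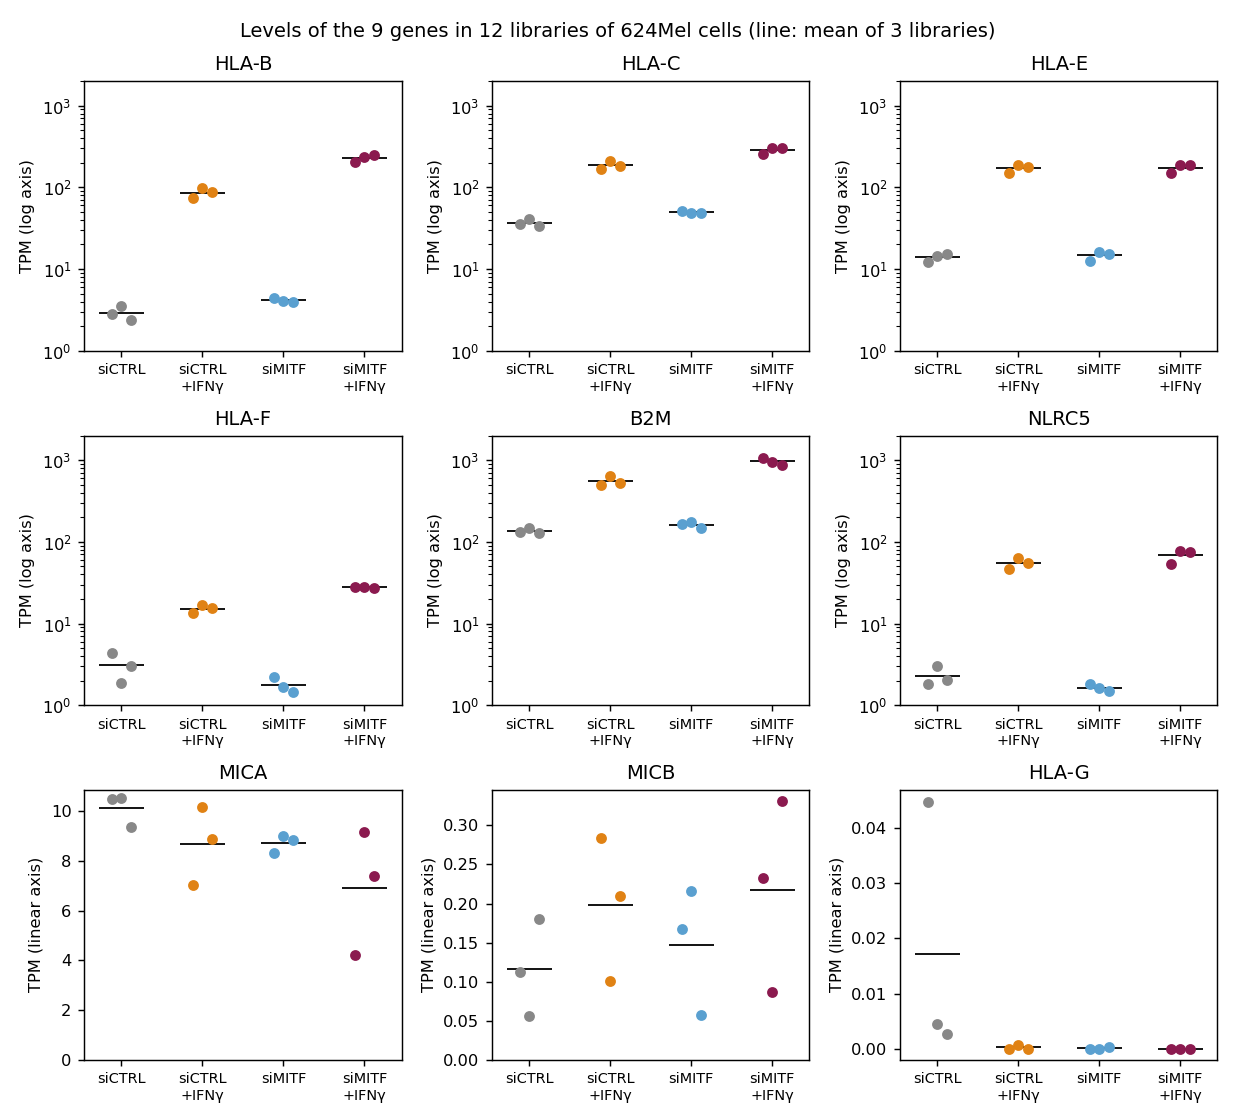
Level of each member gene in every library, in TPM, on a log axis for the induced genes and a linear axis for MICA, MICB and HLA-G, with 1 point per library and a line at the mean of each condition. HLA-B, HLA-C, HLA-E, HLA-F, B2M and NLRC5 libraries with IFNγ lie above all libraries without it, whereas MICA libraries stay between 4.23 and 10.5 TPM.

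By level per length, the order in siCTRL cells was B2M, HLA-C, HLA-E, MICA, HLA-F, HLA-B and NLRC5, followed by MICB and HLA-G. HLA-F, HLA-B and NLRC5 were not distinguishable by their libraries, whose values overlapped. In siCTRL+IFNγ cells the order was B2M, HLA-C, HLA-E, HLA-B, NLRC5, HLA-F and MICA, and HLA-C and HLA-E overlapped. In siMITF+IFNγ cells HLA-B stood behind B2M and HLA-C and above HLA-E, and no neighbouring tested genes in that order overlapped.

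The siMITF comparison without IFNγ called none of the 7 tested genes, against 6.10% of all tested genes called in either direction, while 4 of the 7 (HLA-B, HLA-C, HLA-F and B2M) had an unadjusted limma p under 0.05, as did 43.7% of all tested genes. HLA-C was 1.36-fold higher in siMITF than in siCTRL libraries (log2 fold change 0.43, limma adjusted p = 0.00489), HLA-B 1.42-fold higher (0.40, limma adjusted p = 0.0290) and HLA-F 0.579-fold (-0.51, limma adjusted p = 0.0498), all within the fold limit. B2M was 1.19-fold higher (0.24, limma adjusted p = 0.0945, and 0.0207 with replicate number as a block). The siMITF and siCTRL libraries did not overlap in 4 of the 7 genes, with HLA-B and HLA-C higher and NLRC5 and MICA lower in siMITF, and 55.0% of all tested genes were separated in one direction or the other.

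With IFNγ present, siMITF cells had more HLA-B than siCTRL cells, and HLA-B was the 1 member called of 7, against 3.12% of all tested genes called higher. Its ratio of means was 2.64 (log2 fold change 1.40, SE 0.13, limma adjusted p = 3.84e-06), and the log2 difference was 1.46, 1.24 and 1.49 within replicate numbers 1, 2 and 3. HLA-F was 1.82-fold higher (0.83, limma adjusted p = 0.00427), B2M 1.73-fold higher (0.79, limma adjusted p = 9.52e-05) and HLA-C 1.53-fold higher (0.61, limma adjusted p = 4.57e-04). These genes passed the adjusted p and not the fold limit. For NLRC5 the ratio was 1.25 (0.31, limma adjusted p = 0.183) and for MICA 0.796 (-0.33, limma adjusted p = 0.228). The siMITF+IFNγ libraries lay above all siCTRL+IFNγ libraries in HLA-B, HLA-C, HLA-F and B2M, and 21.3% of all tested genes did so.

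In siMITF cells the IFNγ comparison called the same 6 genes higher as in siCTRL cells, against 2.72% of all tested genes. The comparison of both agents with neither also called 6, against 5.61%; it shares the siCTRL libraries with both single-agent comparisons. The median log2 effect of the 7 genes was 2.33 for IFNγ in siCTRL cells, 3.38 for IFNγ in siMITF cells and 2.95 for both agents. Over all tested genes these medians were -0.07, -0.10 and -0.04.

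Whether the IFNγ effect depended on MITF knockdown was asked by the interaction, defined as the IFNγ log2 effect after siMITF less the one after siCTRL, which was called at an adjusted p under 0.05 with no limit on its size. It was called for HLA-B and HLA-F, 2 of 7, while 0.947% of all tested genes were called and 0.705% with a positive sign. For HLA-F it was 1.34 (95% confidence interval 0.77 to 1.92, limma adjusted p = 0.0341) and for HLA-B 1.00 (0.60 to 1.39, limma adjusted p = 0.0205). The study's methods also set a size limit for non-additive genes, an absolute log2 value over 1. HLA-F exceeded it, and HLA-B, at 0.998 before rounding to 1.00, did not. Within replicate numbers 1, 2 and 3 the HLA-B interaction was 0.94, 1.09 and 0.96, and the HLA-F interaction was 1.73, 0.82 and 1.48. In unpaired fits that left out 1 library, the HLA-B call was kept in 6 and the HLA-F call in 4 of 12. With a pseudocount of 0.1 the interaction was 0.90 for HLA-B (limma adjusted p = 0.0966) and 1.56 for HLA-F (limma adjusted p = 0.0853).

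The other members showed smaller interactions. B2M had 0.55 (0.22 to 0.88, limma adjusted p = 0.162), and with pairing by replicate number, as a block, it was called (limma adjusted p = 0.0212), a fit in which 2.16% of all tested genes had a called interaction; the 3 numbers gave 0.77, 0.35 and 0.54. NLRC5 had 0.62 (0.09 to 1.14, limma adjusted p = 0.492), with 0.21, 0.89 and 0.76 within the numbers. With the replicate block the NLRC5 interaction was not called either (limma adjusted p = 0.110). HLA-C had 0.18 (-0.13 to 0.49), HLA-E -0.05 (-0.43 to 0.32) and MICA -0.14 (-0.75 to 0.47). The intervals of HLA-E and HLA-B did not overlap, but a difference between genes was not tested.

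On the TPM scale, the sum of the single effects added to the siCTRL mean gives a reference for the combination. HLA-B reached 228 TPM against a sum of 87.3 TPM, which is 261% of it, and HLA-F 27.8 against 13.9 TPM, or 199%. B2M reached 165% of its sum, HLA-C 143% and NLRC5 127%. HLA-E was at 101% and MICA at 94.9%.

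**Figure D3:**
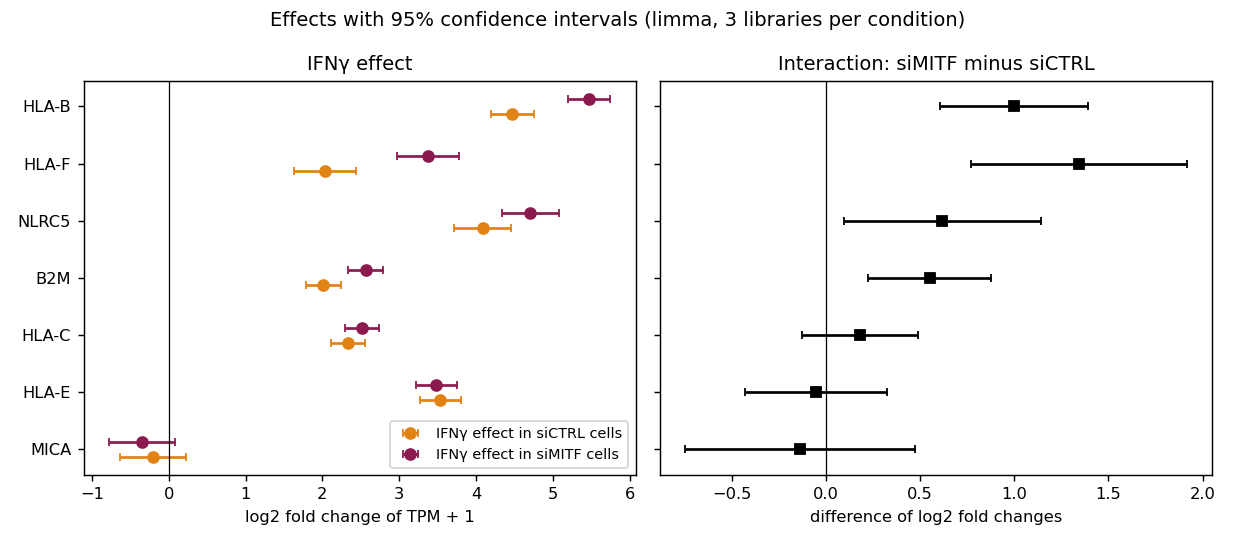
IFNγ effects in siCTRL and siMITF cells (left, log2 fold change of TPM + 1) and their difference, the interaction (right), for the 7 tested members, with 95% confidence intervals from limma. Interactions are highest for HLA-F (1.34) and HLA-B (1.00), and the intervals of HLA-C, HLA-E and MICA include 0.

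HLA-B took a larger share of heavy chain RNA with IFNγ, and more so in siMITF cells; these shares are given without a test. The summed level of HLA-B, HLA-C, HLA-E, HLA-F and HLA-G was 56.5 ± 3.35 TPM in siCTRL and 462 ± 54.3 TPM in siCTRL+IFNγ libraries, and 70.1 ± 0.450 TPM in siMITF and 718 ± 66.4 TPM in siMITF+IFNγ libraries (SD, n = 3). HLA-B made up 5.15% ± 0.722 of this sum in siCTRL, 18.6% ± 0.540 with IFNγ, 5.91% ± 0.382 in siMITF and 31.7% ± 0.505 with both agents. HLA-C made up 64.5% ± 2.85, 40.7% ± 1.15, 70.6% ± 1.81 and 40.1% ± 0.240 in the same order. HLA-E had 24.8% ± 3.20 in siCTRL, 37.4% ± 0.915 with IFNγ, 21.0% ± 2.57 in siMITF and 24.3% ± 0.681 with both. The share of HLA-E was thus lower with both agents than with IFNγ alone, at nearly equal levels of 174 ± 20.2 and 172 ± 19.2 TPM. These shares leave out every heavy chain gene that is not described here.

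B2M TPM per TPM of that heavy chain sum was 2.42 ± 0.0262 in siCTRL and 2.31 ± 0.176 in siMITF. With IFNγ it was 1.20 ± 0.0547 and 1.36 ± 0.262. The libraries with IFNγ all had fewer B2M transcripts per heavy chain transcript than those without.

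**Figure D4:**
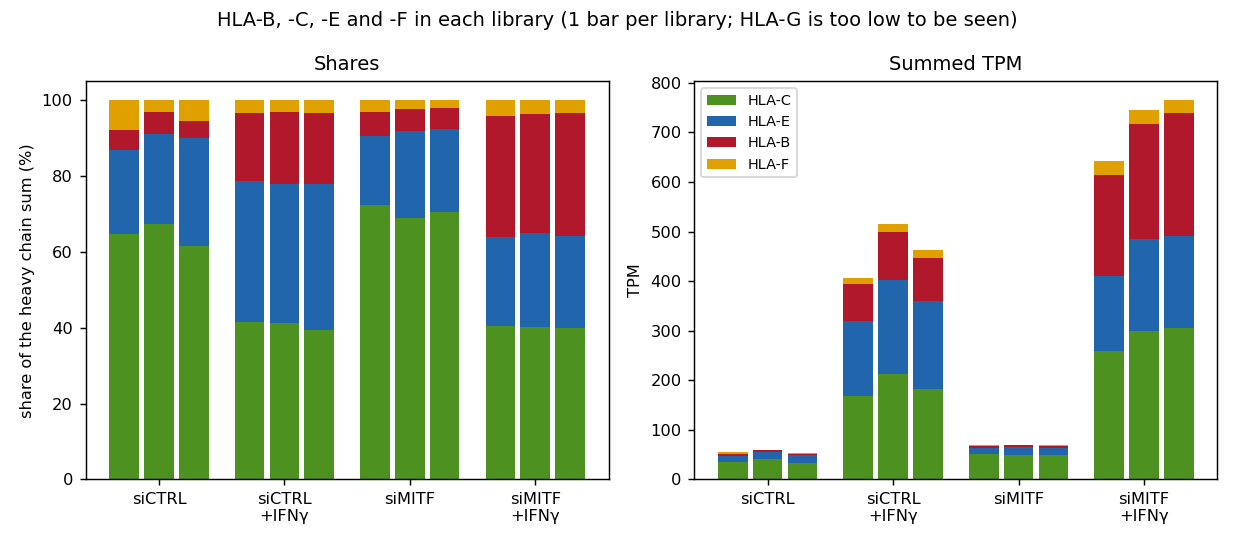
Share of each heavy chain gene, in percent of the summed TPM of HLA-B, HLA-C, HLA-E, HLA-F and HLA-G, with 1 bar per library (left), and the same levels summed in TPM (right); HLA-G is too low to be seen. The mean HLA-B share goes from 5.15% in siCTRL to 31.7% in siMITF+IFNγ, while HLA-C goes from 64.5% to 40.1%.

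The genes share sequence with each other and with genes not described here, which bears on how reads are assigned to them. Of the 31-base words in the annotated transcripts of HLA-B, 48.9% also occurred in another gene, against 16.8% for HLA-C, 12.4% for HLA-E, 25.6% for HLA-F and 29.6% for HLA-G. The shares were 11.9% for MICA and 14.9% for MICB, and 0.589% for B2M and 0.334% for NLRC5. HLA-B and HLA-C had 272 such words in common, 5.56% of those of HLA-B and 10.2% of those of HLA-C. HLA-B shared 48 words with HLA-E, 27 with HLA-G and 23 with HLA-F. Most of its shared words thus occurred in genes that are not members. Words were matched on either strand, so genes that overlap a member in the genome also count. The part of the shares from such overlaps was not separated. Some overlapping genes, such as HLA-F-AS1, have no listed level. The levels of the heavy chains are uncertain to the extent that the quantification split such reads, and alternative haplotype copies, which would raise these shares, are not in the annotation used here.

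Some IDs with no symbol in the reference tables followed the members closely. Of 816 such tested IDs, 13 (1.59%) had a Pearson r of at least 0.99 with HLA-B over the 12 libraries and 8 (0.980%) had one with B2M. Over all tested IDs these shares were 0.384% and 0.290%. The counts were 11 (1.35%) for HLA-C, 24 (2.94%) for HLA-E and 27 (3.31%) for NLRC5, against 0.258%, 0.540% and 0.517% over all. For HLA-F and MICA the count was 0. The gene ID nearest to B2M among all tested was ENSG00000273686 (r = 0.999), at 738 ± 95.3 TPM in siCTRL, 2869 ± 418 in siCTRL+IFNγ, 808 ± 54.1 after siMITF alone and 4807 ± 343 with both agents. The one nearest to HLA-B was ENSG00000206452 (r = 0.998), with mean levels of 13.4, 111, 14.6 and 185 TPM in that order. Both were picked after their values were seen, and the tables do not pair them with a gene. If such IDs stand for further copies of a member, their reads are missing from the levels of B2M and the heavy chains, from the ratio of B2M to the heavy chain sum and from the heavy chain shares; whether they do was not tested.

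Among genes with a symbol, those most like HLA-B over the 12 libraries were CD74, CXCL10 and PSMB9 (Pearson r 0.998, 0.997 and 0.997). HLA-C was most like IL18BP, HLA-B and SAMHD1, with r from 0.996 to 0.997. HLA-E was most like C2, ICAM1 and BATF2 (r = 0.998 each), and B2M most like XAF1, CXCL11 and CD74 (r = 0.996 to 0.997). For NLRC5, 2 of the 3 nearest genes were WARS1 and IFI35 (r = 0.999 each), and for HLA-F, 2 of the 3 were TNFSF13B and TNFRSF21 (r = 0.986 and 0.984). MICA was most like PDZD4, HOXD4 and PRELID1, with r of 0.959, 0.959 and 0.958. Between the 6 induced members r was 0.951 to 0.997, and between MICA and them it was -0.557 to -0.419. The libraries share conditions, which alone brings induced genes together.

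Other genes of the class I pathway were counted in lists chosen by function. Of 10 peptide loading and editing genes, all tested, 5 rose with IFNγ in siCTRL cells and 6 in siMITF cells, with median log2 effects of 0.89 and 1.21. TAP1, a subunit of the peptide transporter, went from 5.12 ± 0.389 to 182 ± 17.7 TPM in siCTRL cells (log2 fold change 4.90, SE 0.11, limma adjusted p = 5.99e-12). In siMITF cells it went from 5.05 ± 0.350 to 294 ± 44.8 TPM (5.60, limma adjusted p = 1.32e-12). TAP2, the other subunit, rose by 1.81 and 2.36 on the log2 scale, and ERAP1, a peptide trimming enzyme, by 1.24 and 1.62. The TAP1 interaction was 0.70 (limma adjusted p = 0.0685), and it was called with the replicate block (limma adjusted p = 0.00878).

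Of 6 immunoproteasome and PA28 activator genes, 4 rose with IFNγ in siCTRL cells and 5 in siMITF cells. The catalytic subunit PSMB9 rose by 4.11 and 4.63 on the log2 scale and PSMB8 by 2.86 and 3.02. PSMB10, another catalytic subunit, went from 26.4 ± 0.834 to 49.5 ± 0.981 TPM in siCTRL cells and from 22.0 ± 0.915 to 74.0 ± 9.73 TPM in siMITF cells, an interaction of 0.81 (SE 0.13, limma adjusted p = 0.00834). None of the 3 constitutive catalytic subunits that these replace was called in any comparison. Their median log2 effect with IFNγ was -0.08 with either siRNA.

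Among 13 genes of factors that act at class I promoters, IRF1, an IFNγ-induced activator, was the only one called with IFNγ. It went from 2.49 ± 0.292 to 88.0 ± 12.8 TPM in siCTRL and from 3.08 ± 0.247 to 155 ± 19.1 TPM in siMITF cells. Its interaction was 0.59 and was called in neither fit (limma adjusted p = 0.210, and 0.0551 with the replicate block). The enhanceosome gene RFX5 was not called, with means of 43.2 ± 4.24 and 46.7 ± 7.94 TPM in siCTRL cells without and with IFNγ, and of 54.3 ± 2.50 and 59.5 ± 6.32 TPM in siMITF cells. With IFNγ present, none of the peptide loading, immunoproteasome or promoter factor genes was called between siMITF and siCTRL cells. TAP1, for example, passed the adjusted p and not the fold limit (log2 difference 0.69, limma adjusted p = 4.50e-04). PSMB9 came closest to the fold limit, with a log2 difference of 0.98. Its means were 22.0 ± 2.21 TPM in siCTRL+IFNγ and 44.2 ± 3.66 TPM in siMITF+IFNγ libraries. Positive effects were seen for 6 of 10 peptide loading, 6 of 6 immunoproteasome and 10 of 13 promoter factor genes. Their medians were 0.13, 0.61 and 0.16, against 0.03 over all tested genes, of which 53.2% were positive.

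MICA and MICB share their receptor with the ULBP and RAET1 family. Of 6 such genes only ULBP2 and ULBP3, 2 in all, were tested, and neither was called in any comparison. ULBP2 stood at 7.58 ± 0.365 TPM in siCTRL libraries and 5.78 ± 0.672 TPM under both agents, and ULBP3 at 5.55 ± 0.645 and 8.25 ± 0.877 TPM. None of 3 tested proteases that shed MIC proteins and none of 3 tested class I-like genes was called in any comparison either.

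**Figure D5:**
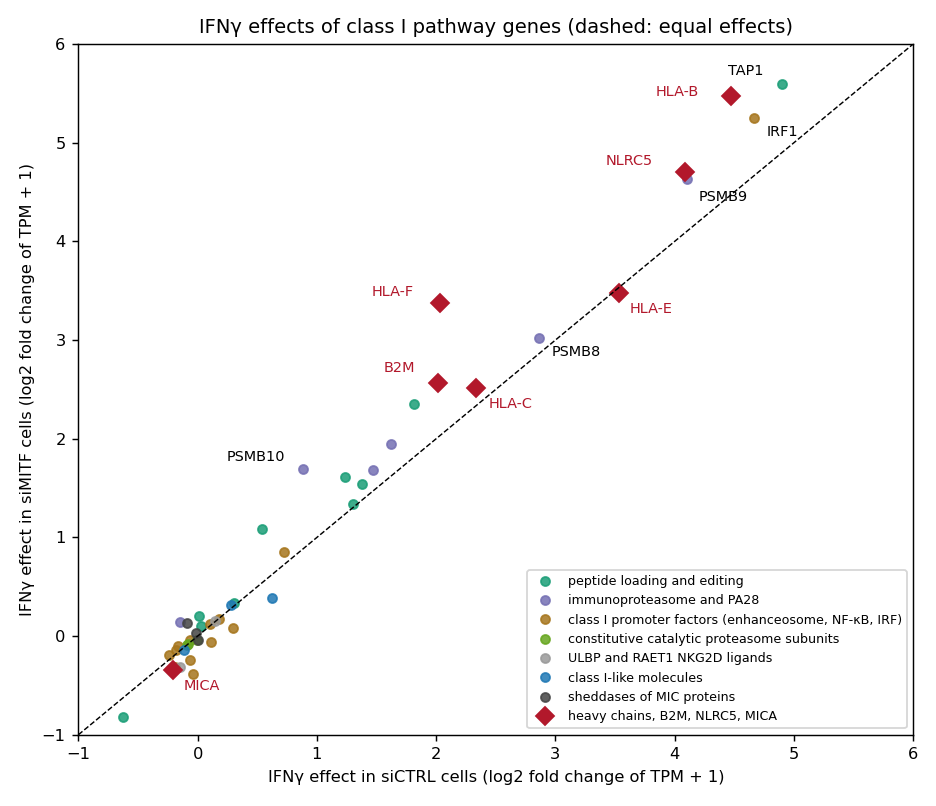
IFNγ effect in siCTRL cells (horizontal) against that in siMITF cells (vertical), both as log2 fold change of TPM + 1, for the tested members (diamonds) and the tested genes of 7 related lists (circles). HLA-F lies farthest above the line of equal effects, HLA-E lies on it, and MICA lies near the origin with the other NKG2D ligands.

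Leukocytes carry much class I RNA, so their markers were measured. Of 10 leukocyte markers only KLRK1 and LYZ reached 2 TPM in a library, CD3E was listed at 0 in all libraries, and PTPRC, which encodes CD45, lay between 0.144 and 0.732 TPM. Their summed level was 4.14 to 4.77 TPM in siCTRL, 3.18 to 3.91 in siCTRL+IFNγ, 7.26 to 8.15 after siMITF alone and 6.59 to 7.18 with both agents. Much of this sum was LYZ, at 2.44 ± 0.158, 1.46 ± 0.143, 4.74 ± 0.434 and 3.03 ± 0.0946 TPM in that order. PTPRC went the other way with IFNγ, at 0.212 ± 0.0128, 0.300 ± 0.0842, 0.170 ± 0.0231 and 0.616 ± 0.109 TPM. The part of these transcripts in the class I levels was not tested. Of 4 fibroblast markers 2 reached 2 TPM, and their sums were 5.79 to 7.43, 3.42 to 4.06, 9.59 to 11.5 and 4.67 to 6.77 TPM in the same order. Endothelial markers summed to at most 0.800 TPM.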

How the data were processed

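RNA from 12 libraries of 624Mel cells was sequenced by the authors after TruSeq RNA v2 preparation, which does not mark strand. Per the study's methods and the submitters' processing notes, Trimmomatic 0.39 and kallisto, with the Ensembl transcriptome of GRCh38, took the reads to the TPM per gene that the authors deposited. The Ensembl release and the tool that summed transcripts are not given in the sources used here, and the authors' DESeq2 1.26.0 tests on counts were not used. TPM keep no depth, so precision rests on the 3 libraries per condition. TPM summed to 975336 to 982632 per library over the 40173 IDs, library correlations were 0.978 to 0.998, and no pair was identical.

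TPM were transformed to log2(TPM + 1) and fitted with limma 3.58.1 (R 4.3.3), with 1 coefficient per condition over all libraries, two-sided tests and empirical Bayes moderation that followed the intensity trend. Benjamini-Hochberg adjustment ran over the 12773 IDs whose mean reached 2 TPM in a condition. An exact permutation test of 3 against 3 libraries cannot go below 0.1, so it was not used. The fit was tested on simulated data. Replicate numbers, taken from the labels, were checked for pairing: after removal of condition means, all 18 pairs of libraries with 1 number had correlations of 0.102 to 0.625, and 36 pairs with different numbers had a median of -0.196. The numbers therefore paired the samples. The main fit did not use this pairing, so its p-values, and those of the fits that left out 1 library, ignore it. A fit blocked on the numbers was an alternative. The others were pseudocounts of 0.1 and 0.5, no filter or a mean of 5 TPM, quantile normalization, median centring, no trend, only the conditions compared, TPM summed by symbol, an adjusted p under 0.01 and each library left out. Symbols were found for 35520 IDs, and promoters came from RefSeq (GRCh38.p14). Transcript words of 31 bases were taken from GENCODE transcripts. Figures were made with matplotlib 3.10.9.

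The members and gene lists were chosen with earlier results of these data known. The named genes were all members, MITF, up to 4 genes of each list with the largest effects, RFX5 as a further example chosen after its values were seen, and the 3 genes most like each tested member. Some genes are not reported here.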

Additional observations from a re-analysis of the deposited data

Results flagged for a closer look

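HLA-B and HLA-F stood out because their IFNγ effects differed between siCTRL and siMITF cells by the interaction test. The interaction of HLA-F was 1.34 and that of HLA-B was 1.00 on the log2(TPM + 1) scale (3 libraries per condition, limma adjusted p = 0.0341 and 0.0205). Both were positive within each of the 3 replicate numbers, which hold the same libraries as the test. So were the interactions of HLA-C, B2M and NLRC5, which were not called. The HLA-F siCTRL libraries, at 4.39, 1.86 and 3.00 TPM, were the most widely spread relative to their mean of the conditions of that gene.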

How the results depend on the processing

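The counts of members called for IFNγ, siMITF and both agents stayed within 1.5 times under every alternative run. The count of called interactions, 2, did not: it was 0 with a pseudocount of 0.1, with no filter on low values and at an adjusted p under 0.01, 1 with a pseudocount of 0.5 and 4 with quantile normalization, where B2M and NLRC5 were called too. Fits that left out 1 library gave 0 to 3. The HLA-B call was lost without siCTRL replicate 1, siCTRL+IFNγ replicate 3, siMITF replicates 2 and 3 or siMITF+IFNγ replicates 2 and 3, with adjusted p up to 0.0729. The HLA-F call was lost without siCTRL replicate 3, siCTRL+IFNγ replicates 1 and 3, siMITF replicates 2 and 3 or any siMITF+IFNγ replicate, with adjusted p up to 0.107. Without siCTRL+IFNγ replicate 2 the B2M interaction was called (adjusted p = 0.0446). The cause was not tested. With the replicate block, interaction calls over all genes went from 121 to 276. B2M joined the members called, which became 3, and the block changed no other call of a member. The blocked limma adjusted p was 0.00501 for the HLA-B interaction and 0.0120 for that of HLA-F. For MICA under both agents against siCTRL it was 0.00894, with the effect still below the fold limit. The fits that left out 1 library did not use the block.

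Directions turned only for small effects, when 1 library was left out. The HLA-E effect of siMITF without IFNγ ranged from -0.014 to 0.16, that with IFNγ from -0.076 to 0.11, its interaction from -0.15 to 0.045, and the MICA interaction from -0.34 to 0.13. TPM summed by symbol could not move a member value, since each member symbol has 1 ID. The IDs with no symbol were not added to any member by it. Depth is unknown, so low levels of HLA-G and MICB carry no detection limit.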
